A study of Mus musculus with 24 samples.

Results

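The comparison described here follows corticosterone-treated mice between the first and the fifth hour of their resting period, its earlier part, and asks which hippocampal genes already move by then. It uses the Cy5 channel of every array that the labels place at the first or the fifth hour, which makes 16 of the 48 channels of the series, 8 for each hour, on 16 of its 24 arrays. All 48 animals were male Swiss-Webster mice, with an age of 12 weeks given in the paper, and each channel held the hippocampal RNA of 1 mouse. According to the paper, mice of about this age were moved to single cages and left undisturbed there for some weeks before treatment. Treated mice drank corticosterone at 100 µg/mL in water containing 0.45% hydroxypropyl-β-cyclodextrin, a sugar ring that keeps the steroid dissolved, through the 12 h dark phase, which is the active time of mice. The hour 1 group was sacrificed during the first hour of the following light phase and the hour 5 group during the fifth. Control mice drank the same cyclodextrin solution without the hormone, and each was hybridized in the Cy3 channel of an array that held a treated mouse of its own hour in Cy5. No dye was swapped, so dye and treatment cannot be told apart. The change between hours within the Cy5 channel is not touched by that, and the control mice show the same hours without the hormone. Different animals make up each hour, so a change is a difference between groups of mice and not the course of an individual. The paper's methods state that each group held mice from several litters and that controls were brothers of treated mice. The labels give no litter, so it was not entered in the fit, which treats the 8 mice of a group as unrelated.

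Corticosterone is the main glucocorticoid of mice and is normally highest at the start of their active phase. It enters cells and binds the glucocorticoid receptor and the mineralocorticoid receptor, which are held by heat shock chaperones in the cytosol, move to the nucleus and bind glucocorticoid response elements in DNA. Classical targets include *Fkbp5*, whose protein lowers the receptor's affinity for the hormone, *Tsc22d3* and *Nfkbia*, whose proteins dampen inflammatory signaling, the kinase gene *Sgk1*, and genes of fuel storage and fasting such as *Pdk4* and *Plin4*. The hippocampus is rich in both receptors and takes part in the feedback that restrains the release of the hormone.

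The arrays of both hours were of similar brightness. Median Cy5 spot intensity before correction lay between 142 and 185 during the first hour and between 136 and 167 during the fifth, over a local background of 43 to 47. In Cy5, spots well above background made up 68.4% to 73.5% during the first hour and 64.0% to 71.8% during the fifth, and 0 spots were saturated. Hours 1 and 5 were spread alike over the 3 slides, with 2, 3 and 3 arrays each. Within a slide, however, hour 1 arrays occupied 3 places and hour 5 arrays 3 others, with 0 places in common, so place on the slide and hour cannot be told apart. The Cy3 channels of the same arrays carry the same difference in place. The number of arrays limits the precision of every value given here.

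A treated mouse of the first hour stood apart from the other 7. In the animal labelled cort_hour1 replicate 8, the summed intensity of 5 markers of the thalamus, which borders the hippocampus, was 5748, against 2419 to 2735 in the other mice of its hour and 2276 to 2665 during the fifth hour. Its summed oligodendrocyte markers reached 80602, against 60432 to 69282 in the rest of its group. It also had the highest value of the group for *Fas*, *Pmaip1*, *Arl4d*, *Pdk4*, *Sgk1*, *Trp53inp1*, *Ddit4*, *Errfi1* and *Klf15*, each separated from the next animal by a wide gap. Of 25 values found to lie far from their group of 8 among 172 groups examined, 15 belonged to this animal. The part of this animal's thalamic and oligodendrocyte signal in the falls was not tested, and values without it are given for these genes and where a change named below no longer passed. Among the mice of the fifth hour, replicate 7 had the highest oligodendrocyte sum, 74459 against 56829 to 63227, and the lowest *Trp53inp1*.

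Between the first and the fifth hour, 296 of 56605 probes changed in treated mice at a Benjamini-Hochberg adjusted p under 0.05, or 0.523%. The falls numbered 167, or 0.295% of the probes, and the rises 129, or 0.228%. They came from a limma fit of both channels of all 24 arrays, in which every group shares an estimate of the spread, and 5318 probes had an unadjusted p under 0.05. Falls were the larger changes: their median log2 fold change was -0.46 and 8 of them reached -1 or beyond, while the median rise was 0.40, the largest was 0.81 and 0 reached 1. The falling probes with a name represented 133 genes and the rising ones 84, and 70 of the 296 probes had no gene name. In 41 probes, or 0.0724% of all, every fifth-hour animal lay below every first-hour animal, and in 29 probes, or 0.0512%, above. Of the probes that changed, 32 falls and 18 rises were separated in this way. Over all probes the median log2 change was 0.00. Since each sample is bulk tissue, fewer cells of a type and less RNA per cell cannot be told apart in any of these changes.

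How many probes pass depended on the animals and on the channels in the fit. Without cort_hour1 replicate 8 and its array, 190 probes changed, 96 lower and 94 higher, and 180 of them were among the 296. A fit of the Cy5 channels of these 16 arrays alone, without help from the control channel or the ninth hour, found 53 probes, 28 lower and 25 higher, of which 51 were among the 296. Without cort_hour1 replicate 3, 132 probes fell and 82 rose, and without cort_hour5 replicate 7, 177 fell and 83 rose. Without slide 3 the falls numbered 38 and the rises 12. With slide as a block, 333 probes changed. Since the probes were chosen by their change over these slides, signs within a slide are partly fixed by that choice: the falls had the same sign in 158 of 167 probes on slide 1 and in all 167 on slides 2 and 3, and the rises in 128 of 129 on slide 1 and in all 129 on slides 2 and 3.

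**Figure D1:**
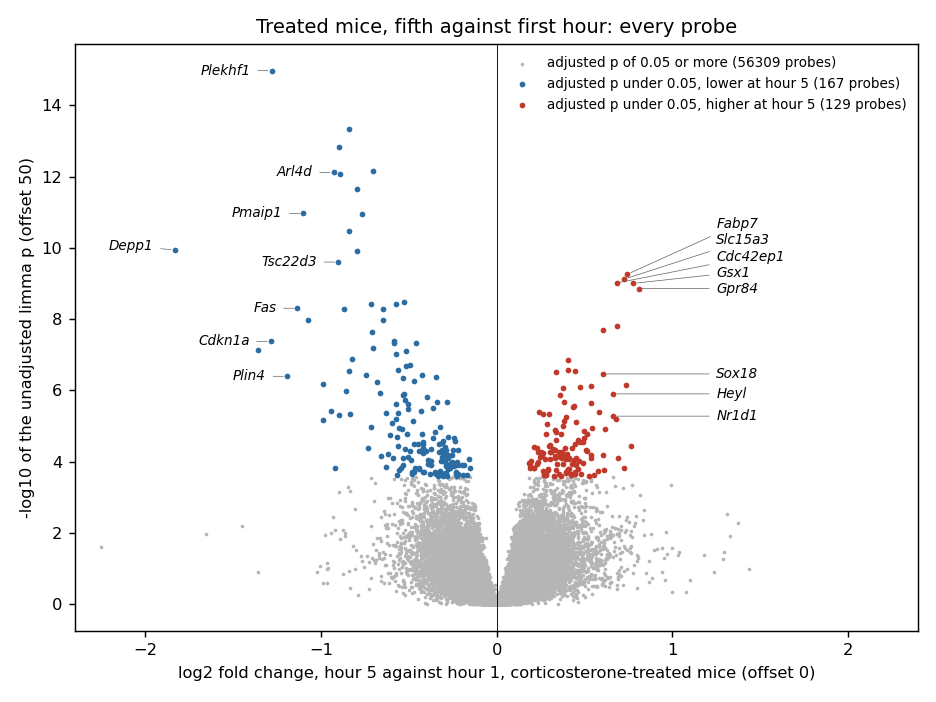
Every probe of the arrays, with the log2 fold change of treated mice between hour 5 and hour 1 on the x axis and -log10 of the unadjusted limma p on the y axis. Blue points are the 167 probes that fell, red points the 129 that rose, and the 8 named genes with the largest fall and the 8 with the largest rise are marked. The falls reach farther from 0 than the rises.

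The deepest fall belonged to *Depp1*, a target of FoxO transcription factors and progesterone whose product regulates autophagy. Its lowest, median and highest probe signal intensities were 138, 320.0 and 564 during the first hour and 44.7, 94.3 and 155 during the fifth, and 7 of the 8 later animals lay below all earlier ones. The log2 fold change was -1.83 (standard error, SE, 0.25, n = 8 and 8, adjusted p = 5.73e-07). Without cort_hour1 replicate 8 it was -1.85. In control mice *Depp1* was -0.58 over the same hours, which did not pass (adjusted p = 0.597).

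Of 44 measured glucocorticoid receptor target genes, 19 fell and 0 rose, with a median log2 change of -0.29 over the list against 0.00 over all probes. The share of all probes that fell was 0.295%. The list was drawn up with the paper's results from these same arrays known. It holds genes such as *Sgk1*, *Pdk4* and *Plekhf1*, which the paper reports as altered only during the first hour. A fall between the hours was thus partly built into the list, and its count is not independent evidence. The paper describes its members *Galnt15*, *Lrg1* and *Htra1* as not linked to the glucocorticoid response before. Without cort_hour1 replicate 8, 14 of the 44 fell and the median was -0.27, and in the Cy5 channel alone 8 fell. In control mice the median of the same list was -0.09 and 1 member, *Mt2*, passed, with a rise. The list's median was -0.12 on slide 1, -0.39 on slide 2 and -0.31 on slide 3. When each animal was scored by the median deviation of the list from its 16-animal mean, first-hour animals lay between -0.04 and 0.53 and fifth-hour animals between -0.38 and 0.00, so the groups overlapped slightly. Ninth-hour animals lay between -0.40 and -0.30, below 7 of the 8 fifth-hour values.

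Among the targets that restrain glucocorticoid and inflammatory signaling, *Nfkbia*, the inhibitor that holds NF-kappaB in the cytosol, separated the hours fully. Its values were 2129, 3228 and 4295 during the first hour and 1470.2, 1599 and 1964 during the fifth (log2 fold change -0.90, SE 0.09, adjusted p = 2.87e-09). Ninth-hour treated mice, at a median of 1649, and fifth-hour control mice, at 1675, lay close to the fifth-hour treated level. *Tsc22d3*, which encodes the leucine zipper protein GILZ, went from 4447, 6889 and 10914 to 2865, 3783 and 4488, which gives -0.90 in log2 (adjusted p = 1.09e-06, SE 0.12). It was lower again during the ninth hour, at a median of 2506. A dim *Tsc22d3* probe, at a mean intensity of only 22.3, was 0.11 and did not pass. For *Fkbp5* the probes differed in size: the brighter gave -0.42 (adjusted p = 0.0141) and a dimmer probe -0.77 (adjusted p = 7.2e-08). The brighter *Fkbp5* probe was 0.12 on slide 1, -0.54 on slide 2 and -0.66 on slide 3, and its adjusted p without cort_hour1 replicate 8 was 0.0602.

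*Sgk1*, a kinase that controls ion channels and transporters, was the brightest of the 15 largest falls. Its values were 6308, 7946 and 11126 during the first hour and 3423, 4535 and 5266 during the fifth, with no overlap (log2 fold change -0.84, SE 0.08, adjusted p = 1.34e-09; -0.77 without cort_hour1 replicate 8). The median of the control mice was 4861 during the first hour and 4676 during the fifth. *Plekhf1*, an adaptor protein of endosomes and lysosomes, had the smallest p of all probes. It went from 107.2, 165 and 246 to 50.9, 67.7 and 98.4 (log2 fold change -1.28, SE 0.12, adjusted p = 6.01e-11), and was -1.20 without that animal. *Arl4d*, a small GTPase of the ARF family, changed by -0.93 in log2 (adjusted p = 7.81e-09, SE 0.10; -0.85 without it), and its fifth-hour animals also all lay below the first-hour ones.

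Smaller falls within the list included those of *Errfi1*, *Klf15*, *Tiparp*, *Pim3* and *Azin1*. *Errfi1*, an inhibitor of the EGF receptor, changed by -0.53 (-0.43 without cort_hour1 replicate 8), and *Klf15*, a transcription factor of amino acid and lipid metabolism, by -0.57 (-0.49 without it). The ADP-ribosyltransferase gene *Tiparp* changed by -0.31, the kinase gene *Pim3* by -0.28 and *Azin1*, which protects the polyamine pathway, by -0.24. Without cort_hour1 replicate 8, *Tiparp* (adjusted p = 0.0742) and *Azin1* (0.0556) no longer passed. *Pim3* did not pass in the Cy5 channel alone (adjusted p = 0.213) or without slide 1, 2 or 3 (0.0873, 0.197 and 0.4775). Of 34 alternatives, 13 lost the call of *Pim3*, 8 that of *Tiparp* and 6 that of *Azin1*. The 25 members that did not pass, of which *Hif3a* and *Tat* are named after their values were seen, ranged from -0.81 for *Hif3a* (adjusted p = 0.162) to 0.06 for *Tat*. Among the brightest of these, *Mt1* was -0.07, *Htra1* -0.25, *Fam107a* 0.00 and *Gjb6* -0.27. *Per1*, which is a target of the receptor as well as a clock gene, was -0.21 (adjusted p = 0.0522), just outside the threshold.

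**Figure D2:**
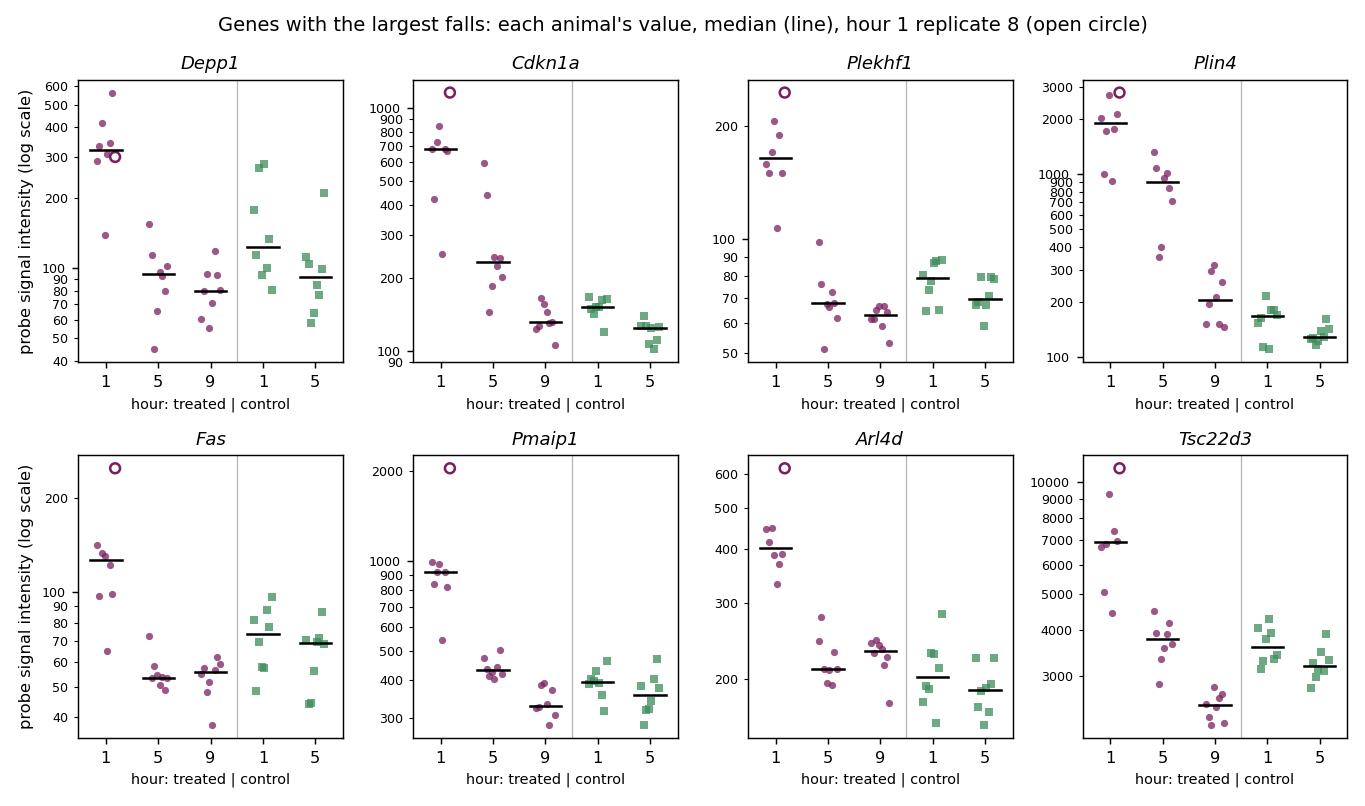
Probe signal intensity (log scale) of each mouse for the 8 named genes with the largest falls, with treated mice at hours 1, 5 and 9 as circles and control mice at hours 1 and 5 as squares. Lines are medians of 8 mice and the open circle is the hour 1 mouse replicate 8, which is the highest of its group in 7 of the 8 panels. For *Plekhf1*, *Pmaip1* and *Arl4d* all 8 treated values at hour 5 lie below all 8 at hour 1.

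The promoters of these genes are shown because many members moved together and the receptor acts through DNA. Windows of 300 bases, from 250 before to 50 after each start site, came from RefSeq (GRCm38.p6), and 101 of 129 falling genes and 55 of 82 rising genes with an intensity of 50 or more had an entry. The motifs searched, on both strands, were the half-site of the glucocorticoid response element (AGAACA), the full element (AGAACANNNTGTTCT, which contains a half-site on each strand), a FoxO site (GTAAACA), an E-box (CACGTG) and a cAMP response element (TGACGTCA). A half-site occurred in 9 falling genes (8.91%), in 3 rising genes (5.45%) and in 15.8% of the 12200 genes measured at that intensity with an entry. The full element occurred in 1 falling gene, *Sgk1*, in 0 rising genes and in 1 of the 12200 genes. E-boxes were found in 13.9%, 9.09% and 11.2% of the falling, rising and measured genes, FoxO sites in 3.96%, 1.82% and 3.15%, and cAMP response elements in 4.95%, 3.64% and 3.40%. A match is a description of the letters only, and a window without one says nothing about the factor. Where a gene had more than 1 window, the one with the most motif letters was picked. The windows given are that of *Depp1*, the largest fall, which held none of these motifs, and those among the 15 largest falls and 15 largest rises that held at least 1, with the motif letters in capitals. They lie at chr6:116650434-116650733 (plus strand) for *Depp1*, chr19:34290409-34290708 (plus) for *Fas*, chr11:101665291-101665590 (plus) for *Arl4d*, chrX:140600473-140600772 (minus) for *Tsc22d3*, chr10:21993640-21993939 (plus) for *Sgk1*, chr11:102579070-102579369 (minus) for *Gm11627* and chr2:147186353-147186652 (minus) for *Nkx2-2*, and each is written 5′ to 3′ on the strand of its gene.
Depp1: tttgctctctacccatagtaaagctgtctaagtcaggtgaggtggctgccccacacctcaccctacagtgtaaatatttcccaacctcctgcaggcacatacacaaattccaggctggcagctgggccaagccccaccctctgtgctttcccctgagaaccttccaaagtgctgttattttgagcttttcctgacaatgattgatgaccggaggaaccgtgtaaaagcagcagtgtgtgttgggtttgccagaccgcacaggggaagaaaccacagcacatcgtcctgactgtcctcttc
Fas: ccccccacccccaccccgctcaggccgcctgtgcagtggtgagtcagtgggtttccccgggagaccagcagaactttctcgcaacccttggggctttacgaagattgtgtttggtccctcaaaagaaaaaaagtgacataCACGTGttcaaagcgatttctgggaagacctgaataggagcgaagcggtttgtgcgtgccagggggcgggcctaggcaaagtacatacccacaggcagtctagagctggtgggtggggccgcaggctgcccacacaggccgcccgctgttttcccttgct
Arl4d: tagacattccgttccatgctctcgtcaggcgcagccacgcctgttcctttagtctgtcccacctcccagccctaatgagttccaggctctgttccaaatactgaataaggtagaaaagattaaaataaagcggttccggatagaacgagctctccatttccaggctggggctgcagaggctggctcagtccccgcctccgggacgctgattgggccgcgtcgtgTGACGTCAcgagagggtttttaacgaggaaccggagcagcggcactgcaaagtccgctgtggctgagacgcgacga
Tsc22d3: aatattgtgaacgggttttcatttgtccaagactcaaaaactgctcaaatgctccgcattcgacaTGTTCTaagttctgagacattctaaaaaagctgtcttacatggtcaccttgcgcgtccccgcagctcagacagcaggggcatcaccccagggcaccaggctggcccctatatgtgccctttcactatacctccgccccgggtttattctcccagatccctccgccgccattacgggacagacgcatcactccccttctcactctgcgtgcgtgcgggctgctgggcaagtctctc
Sgk1: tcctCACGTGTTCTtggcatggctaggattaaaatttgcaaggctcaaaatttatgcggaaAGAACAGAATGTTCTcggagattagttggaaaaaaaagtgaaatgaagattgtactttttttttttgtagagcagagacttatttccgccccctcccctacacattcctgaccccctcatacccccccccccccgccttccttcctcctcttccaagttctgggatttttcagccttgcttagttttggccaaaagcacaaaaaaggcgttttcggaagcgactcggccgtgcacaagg
Gm11627: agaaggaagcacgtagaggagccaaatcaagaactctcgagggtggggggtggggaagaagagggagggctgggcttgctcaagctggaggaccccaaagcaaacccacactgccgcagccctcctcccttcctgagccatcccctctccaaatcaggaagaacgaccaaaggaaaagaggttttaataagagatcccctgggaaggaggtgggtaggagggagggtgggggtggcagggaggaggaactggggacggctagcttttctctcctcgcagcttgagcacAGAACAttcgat
Nkx2-2: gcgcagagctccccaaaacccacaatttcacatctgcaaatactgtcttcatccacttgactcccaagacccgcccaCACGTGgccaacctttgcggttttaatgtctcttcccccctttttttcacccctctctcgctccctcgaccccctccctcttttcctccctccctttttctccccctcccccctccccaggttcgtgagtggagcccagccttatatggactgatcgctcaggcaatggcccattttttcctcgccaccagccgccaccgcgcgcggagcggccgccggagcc
The capitals mark an E-box that begins 110 bases before the start site of *Fas*, a cAMP response element 26 bases before that of *Arl4d* and a half-site 185 bases before that of *Tsc22d3*. The *Tsc22d3* window is 1 of 3 for that gene. In the *Sgk1* window, which is 1 of 6 for this gene, they mark an E-box at 246 bases and a half-site at 242 bases before the start, which overlap, and the full element at 189 bases before it. *Gm11627* had a half-site that begins at base 39 after the start and *Nkx2-2*, a rising gene, an E-box 173 bases before it. *Sgk1*, whose window was picked out of 6 by its motif letters, separated the hours completely. *Plekhf1* and *Pdk4*, with 1 window each, also separated them and had none of the motifs. Whether a motif bears on a fall was not tested.

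In the list of growth arrest and cell death genes, 7 of 23 measured members fell and 0 rose, with a list median of -0.04 (control -0.11), and the same number fell without cort_hour1 replicate 8. Over all probes 0.295% fell, and in the Cy5 channel alone 3 of the 23 passed. Some members, such as *Cdkn1a* and *Errfi1*, also count among the glucocorticoid receptor targets. The paper names both among short-term or reversing responses in these same arrays, so falls were partly built into this list too. The cyclin-dependent kinase inhibitor *Cdkn1a* went from 250.04, 681 and 1161 during the first hour to 144, 233 and 595 during the fifth (log2 fold change -1.29, SE 0.21, adjusted p = 7.7e-05). Its fall was uneven over the slides, -0.07 on slide 1 against -1.52 and -1.87 on slides 2 and 3. Even the fifth-hour animals remained above the controls, all of which lay between 101 and 139.6, and the ninth-hour treated median was 131. In the Cy5 channel alone *Cdkn1a* did not pass (adjusted p = 0.14). Another *Cdkn1a* probe, at a mean intensity of only 24.6, was 0.16 and did not pass.

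The death receptor gene *Fas* was 65.0, 126 and 248 during the first hour and 48.9, 53.5 and 72.2 during the fifth, a log2 change of -1.13 (SE 0.17, adjusted p = 1.22e-05) that was -0.99 without cort_hour1 replicate 8. Another *Fas* probe, at a mean intensity of only 16.8, was 0.27 and did not pass. *Pmaip1*, which encodes the BH3-only protein NOXA, showed 546, 918 and 2035 and then 404, 431 and 504, with no overlap (log2 fold change -1.10, SE 0.13, adjusted p = 7.2e-08; -0.94 without that animal). *Trp53inp1*, a p53-inducible regulator of autophagy and cell death, changed by -0.83 (adjusted p = 0.000193; -0.72 without that animal), ranging from -0.40 on slide 1 to -1.31 on slide 3. Its lowest fifth-hour value, 189 in replicate 7, lay far below the other 7, which began at 433, and the control mouse on the same array also had the lowest value of its group, 217. Without that array the log2 change was -0.66. A dimmer *Trp53inp1* probe, at a mean intensity of 49.4, was -0.09 and did not pass. The antiproliferative gene *Tob2* changed by -0.53 and the stress sensor *Gadd45g* by -0.35, both without overlap between the hours. Bright members that did not pass were *Ndrg2* (0.00), *Hrk* (0.15) and *Btg1* (-0.10).

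In the list of fasting and FoxO response genes, 8 of 29 measured members fell and 0 rose, also without cort_hour1 replicate 8, with a median of -0.13 against -0.03 in control mice. The share of all probes was 0.295%, and in the Cy5 channel alone 5 of the 29 passed. The paper reports *Depp1*, *Pdk4*, *Ddit4* and *Arrdc2* from these same arrays as altered only during the first hour, so falls were partly built into this list. Besides *Depp1*, *Pdk4*, the kinase that shuts pyruvate dehydrogenase in fasting, went from 661, 946 and 1522 to 438, 505 and 578 without overlap (log2 fold change -0.84, SE 0.10, adjusted p = 1.85e-07; -0.74 without that animal). *Ddit4*, an inhibitor of mTOR signaling, went from 11825, 14850.0 and 21770.0 to 7829, 9440.2 and 10662, again without overlap (log2 fold change -0.70, adjusted p = 7.81e-09; -0.63 without it). Among arrestin-domain genes that curb glucose uptake, *Txnip* changed by -0.58, *Arrdc2* by -0.80 and *Arrdc4* by -0.47 at a dimmer probe, while its brighter probe was -0.15 and did not pass. *Slc2a1*, the glucose transporter of the blood-brain barrier, changed by -0.57 (adjusted p = 0.00193), with a value of -0.13 on slide 1. The insulin receptor substrate gene *Irs2* changed by -0.22. Values close to 0 were seen for *Acadm* (0.00), *Pdk2* (0.02) and *Ccng2* (-0.03), and *Sesn1* was -0.18 (adjusted p = 0.162).

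*Plin4*, which coats lipid droplets, was the only one of 15 lipid droplet genes to pass, with a list median of -0.03 (control 0.00), where 0.295% of all probes fell. Its values were 915, 1894 and 2784 during the first hour and 351, 900.3 and 1326 during the fifth, and 4 of the 8 later animals lay below all earlier ones (log2 fold change -1.19, SE 0.22, adjusted p = 0.000457). Fifth-hour treated animals were still all above fifth-hour controls, whose highest value was 163, and the ninth-hour treated median was 205. The within-slide changes were -0.25, -1.65 and -1.36. In the Cy5 channel alone 0 of the 15 passed (*Plin4* adjusted p = 0.149), and without slide 3 its adjusted p was 0.206. *Dgat2* (-0.11), *Mgll* (-0.04) and *Pnpla2* (-0.26) did not pass.

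Outside the lists, the genes among the 15 largest falls were *Map3k6*, *Acer2* and *Gm11627*. *Map3k6*, a kinase of stress-activated signaling, changed by -0.90 (SE 0.19, adjusted p = 0.00328), with 0.17 on slide 1 and -1.22 and -1.29 on the others. *Acer2*, a ceramidase of the Golgi apparatus, changed by -0.84 (adjusted p = 0.000352). The predicted gene *Gm11627* went from 928, 1171 and 1384 to 488, 699.6 and 778 without overlap (log2 fold change -0.80, adjusted p = 5.73e-07).

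The metallothionein gene *Mt2*, whose protein binds zinc and is induced by glucocorticoids, was among the brightest probes of the array. Treated mice went from 84153, 98074 and 110480.0 to 64439, 70528 and 90253 (log2 fold change -0.39, SE 0.09, adjusted p = 0.0247; 0.0745 without cort_hour1 replicate 8). Control mice went the other way, from 29139, 31981 and 43906 to 39843, 52415 and 60897, a log2 change of 0.61 (adjusted p = 0.00142). The difference between these changes was -0.998 (SE 0.11, adjusted p = 2.7e-07), the smallest p of that test. It was the only one of 10 metallothionein and zinc genes to pass, against falls in 0.295% of all probes, and the list median was -0.03 in treated and 0.05 in control mice. In the Cy5 channel alone 0 of the 10 passed (*Mt2* adjusted p = 0.0936). *Mt3* was 0.04, *Slc39a1* -0.02 and *Mtf1* -0.05.

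**Figure D3:**
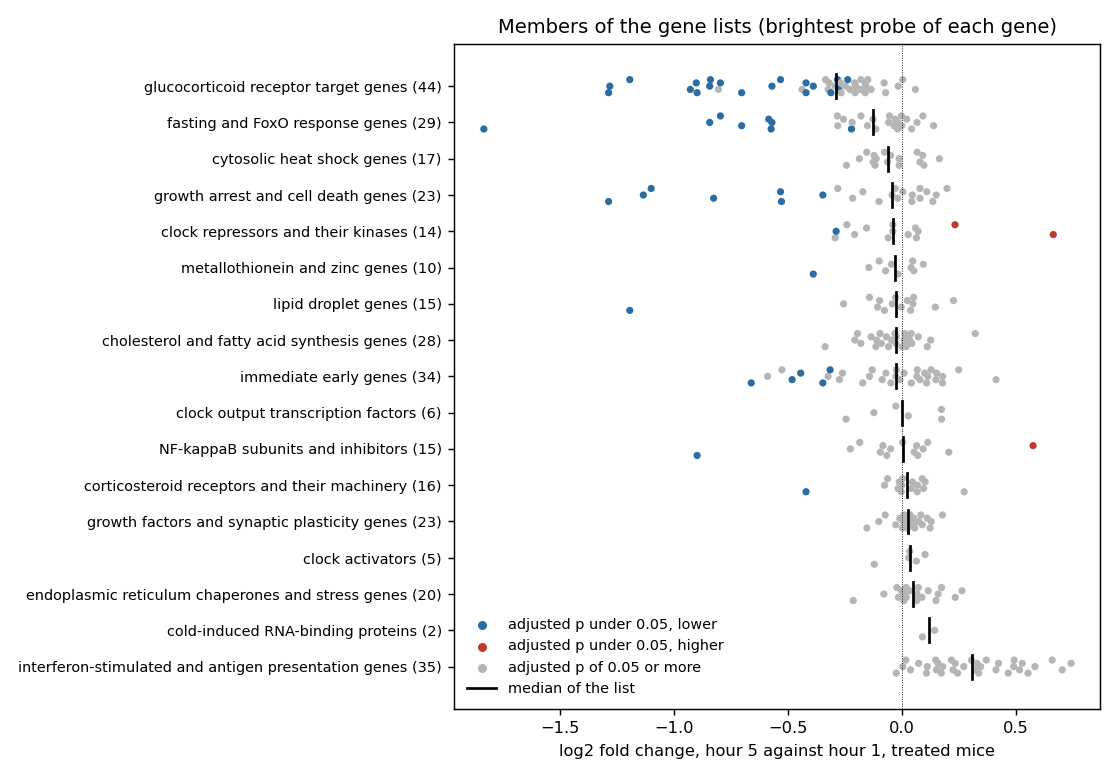
Log2 fold change of treated mice between hour 5 and hour 1 (x axis) for each measured member of the 17 gene lists (y axis, number of members in brackets), by the brightest probe of each gene. Blue and red points passed the test, grey points did not, and the black line is the list's median. The median is lowest for the glucocorticoid receptor targets at -0.29. It is highest for the interferon-stimulated genes at 0.30, where 0 of 35 members passed, beside 0.523% of all probes.

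Immediate early genes, which neurons switch on within minutes of activity, gave 5 falls among 34 measured members and a list median of -0.03 (control -0.03). Of all probes 0.295% fell, and in the Cy5 channel alone 1 of the 34 passed. *Arc*, a regulator of synaptic strength, went from 4990.4, 9299 and 11243 to 4256, 5399 and 6221 (log2 fold change -0.66, SE 0.16, adjusted p = 0.022), and control mice had -0.56 over the same hours without passing. *Nr4a1*, a nuclear receptor, changed by -0.48 in treated mice and was -0.37 in controls. The phosphatase gene *Dusp5* changed by -0.44 at a dim probe and the pseudokinase gene *Trib1* by -0.32, and *Gadd45g* was the remaining member. Without cort_hour1 replicate 8, *Gadd45g* alone passed, and the adjusted p was 0.0627 for *Arc*, 0.0986 for *Nr4a1*, 0.0602 for *Dusp5* and 0.0693 for *Trib1*. Of 34 alternatives, 22 lost the call of *Nr4a1*, 18 that of *Dusp5*, 11 that of *Arc*, 11 that of *Trib1* and 3 that of *Gadd45g*. A single array left out accounted for 11, 10, 5, 6 and 0 of these. A probe of *Jund* rose by 0.26 (adjusted p = 0.0193) while its brighter probe, at 0.25, did not pass. *Jun* (-0.09), *Junb* (-0.13), *Nr4a2* (0.07) and *Ier5* (0.15) did not pass either.

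Clock genes move with the time of day, and here treated and control mice can be read side by side. Of 14 repressors and their kinases, 1 fell and 2 rose, with a median of -0.04 (control -0.03). The shares of all probes were 0.295% and 0.228%, and 0 of the 14 passed in the Cy5 channel alone. *Nr1d1*, which encodes the repressor REV-ERBα, went from 256, 534 and 621 to 568, 823 and 929.6 in treated mice (log2 fold change 0.66, SE 0.13, adjusted p = 0.0034). Control mice had 351, 405 and 497 and then 498, 657 and 799.8, a log2 value of 0.63 that did not pass (adjusted p = 0.13), and the difference between treated and control was 0.04. *Per2* changed by -0.29 in treated mice (adjusted p = 0.0438, and 0.13 without cort_hour1 replicate 8) and was -0.33 in controls. Its call was lost under 21 of 34 alternatives, 12 of them with a single array left out. The clock kinase gene *Csnk1e* rose by 0.23 at its brightest probe, whereas its other probes were 0.10 and 0.10 without passing. Of the 5 clock activators measured, 0 passed (0 also with an unadjusted p under 0.05 by limma), with values of 0.10 for *Arntl*, 0.03 for *Clock*, -0.12 for *Rora* and 0.03 for *Npas2*. Among 6 output transcription factors and their partners 0 passed, 2 with an unadjusted p under 0.05, and *Dbp* was 0.17, *Usp2* 0.17, *Hlf* -0.12 and *Tef* 0.03.

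The receptors themselves, named after their values were seen, did not pass: *Nr3c1*, the glucocorticoid receptor, was 0.00 (SE 0.07, adjusted p = 0.995) and *Nr3c2*, the mineralocorticoid receptor, 0.10 (SE 0.07, adjusted p = 0.688). Within the list of receptors and their machinery, *Fkbp5* was the only fall among 16 members and the median was 0.02 (control -0.01). Of all probes, 0.295% fell and 0.228% rose. In the Cy5 channel alone 0 of the 16 passed. The chaperone genes *Hsp90ab1* (-0.08), *Hsp90aa1* (-0.01) and *Hspa8* (0.07) and the co-chaperone gene *Bag1* (-0.02) did not pass. Among 15 NF-kappaB subunits and inhibitors, *Nfkbia* fell and *Bcl3*, a nuclear member of the inhibitor family, rose by 0.57 (adjusted p = 0.0409). The *Bcl3* change did not pass in the Cy5 channel alone (adjusted p = 0.135) or without slide 1, 2 or 3 (adjusted p = 0.23, 0.316 and 0.136), and was lost under 17 of 34 alternatives, 9 of them with a single array left out. The list median was 0.00 (control -0.04), and *Rela* (0.11), *Chuk* (0.05), *Nfkbib* (-0.08) and *Ikbkb* (0.06) did not pass.

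Several lists held 0 members that passed in limma, where 0.523% of all probes passed in either direction. These were the 17 cytosolic heat shock genes (2 with an unadjusted p under 0.05, median -0.06), the 20 endoplasmic reticulum genes (3, median 0.05), the 28 cholesterol and fatty acid synthesis genes (7, median -0.03) and the 23 growth factor and plasticity genes (0, median 0.03). Control medians were -0.09, -0.03, -0.02 and 0.03. In lists of this size a count of 0 lies near the share of all probes, so it does not show that the members stayed unchanged. *Dnaja1* was -0.06, *Hspa5* -0.21, *Atf4* -0.02, *Pdia6* 0.16, *Scd2* 0.01, *Fasn* -0.11 and *Hmgcs1* 0.04. Among neuronal signaling genes, *Cck* was 0.01, *Sst* 0.06 and *Gria1* -0.07. Of the cold-induced RNA-binding protein genes, *Cirbp* was 0.14 and the brightest *Rbm3* probe 0.09, neither passing, and the list median was 0.12 (control 0.29). A dim *Rbm3* probe, at a mean intensity of 81.7, fell by 0.72 in treated mice (adjusted p = 0.00609) and was -0.85 in controls, which also passed, while the 3 brighter probes lay between 0.09 and 0.13.

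Interferon-stimulated and antigen presentation genes had the highest list median, 0.30, yet 0 of 35 members passed and 6 had an unadjusted p under 0.05 in limma. Of all probes 0.523% passed in either direction, so 0 of 35 lies near that share. In the Cy5 channel alone *Gbp7* passed (log2 fold change 0.42, adjusted p = 0.0428). The median came from slide 1: it was 0.94 there, -0.05 on slide 2 and 0.11 on slide 3. The fifth-hour animals of slide 1, replicates 1 and 2, had list deviations of 0.56 and 0.76, whereas the other 6 lay between -0.20 and 0.13 and the first-hour animals between -0.28 and 0.16. *H2-K1* was 1.08 on slide 1 and 0.08 and 0.08 on slides 2 and 3, and *B2m* 0.92, -0.04 and 0.02. In control mice the list median was -0.04.

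Among the rises, *Gpr84*, a receptor for medium-chain fatty acids found on microglia and other myeloid cells, was the largest. It went from 84.1, 104 and 130.1 during the first hour to 140.5, 179 and 206 during the fifth without overlap (log2 fold change 0.81, SE 0.11, adjusted p = 4.37e-06). The change was nearly equal on the 3 slides (0.86, 0.78 and 0.80), and control mice had 0.30 without passing. *Slc15a3*, a peptide and histidine transporter of lysosomes, went from 47.7, 59.3 and 79.1 to 79.8, 99.1 and 111 (log2 fold change 0.72, SE 0.10, adjusted p = 2.85e-06). It was 1 of the 3 probes that also passed in control mice (0.54, adjusted p = 0.0184), and the difference between the groups was 0.19.

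The next of the largest rises belong to no list. *Fabp7*, the fatty acid-binding protein of astrocytes and neural progenitors, went from 3195, 3748 and 4928 to 4559, 6847 and 7714, and 7 of the 8 later animals lay above all earlier ones (log2 fold change 0.74, SE 0.10, adjusted p = 2.22e-06). First-hour treated mice, at a median of 3748, lay below first-hour controls at 6363. The homeobox gene *Gsx1* rose by 0.78 (adjusted p = 3.31e-06) at a dim probe with a mean intensity of 64.3, *Meox1* by 0.60 (adjusted p = 3.96e-05) and *Nkx2-2*, a factor of oligodendrocyte precursors, by 0.58 (adjusted p = 0.00287). *Nkx2-2* did not pass in the Cy5 channel alone (adjusted p = 0.152) or without slide 1 (0.0881) or slide 3 (0.541). Its dimmer probe was 0.36 and did not pass (adjusted p = 0.199). *Gsx1* and *Meox1* separated the hours fully. *Heyl*, a target of Notch signaling, rose by 0.66 and *Cdc42ep1*, an effector of the GTPase Cdc42, by 0.68 (adjusted p = 3.31e-06), the latter from 1107, 1274 and 1629.9 to 1750.4, 2119 and 2734 without overlap. *Gpr84*, *Gsx1*, *Fabp7* and *Cdc42ep1* were 0.82, 0.81, 0.77 and 0.68 without cort_hour1 replicate 8. Without slide 3, *Heyl* (adjusted p = 0.36) and *Meox1* (0.148) did not pass.

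Of 7 endothelial markers 2 rose, with a list median of 0.07 in treated and 0.07 in control mice, and -0.13 on slide 2, and 0 passed in the Cy5 channel alone. Of all probes 0.228% rose. *Sox18*, a transcription factor of endothelial cells, changed by 0.60 (SE 0.11, adjusted p = 0.000417), *Cd93*, an endothelial surface protein, by 0.52 (adjusted p = 0.0182) and *Ets1* by 0.51 at its brighter probe and 0.29 at another. Among the markers, *Kdr*, the main receptor for VEGF, rose by 0.45 (adjusted p = 0.00464) and the tight junction gene *Cldn5* by 0.37 (adjusted p = 0.00578), while 5 did not pass, among them *Ly6c1* at -0.13 and *Flt1* at 0.13. Another *Kdr* probe, at a mean intensity of only 14.7, was 0.04 and did not pass. The summed endothelial markers, led by *Ly6c1*, ranged from 15037 to 16759 during the first hour and from 15317 to 17871 during the fifth, so the sums overlapped. With slide 3 left out, none of these genes passed: *Sox18* was 0.53 (adjusted p = 0.224), *Cd93* 0.30 (0.772), *Ets1* 0.34 (0.646), *Kdr* 0.28 (0.737) and *Cldn5* 0.29 (0.31). *Sox18* alone of them passed in the Cy5 channel alone. *Cx3cr1*, the fractalkine receptor of microglia, rose by 0.28 (adjusted p = 0.00852) as the only one of 7 microglial markers, whose sum, led by *Csf1r*, was 17385 to 23705 and then 18321 to 24632. These 7 markers ranged from -0.31 to 0.28, with a median of 0.02 in treated and 0.11 in control mice. *Cx3cr1* did not pass without slide 2 (adjusted p = 0.3184) or slide 3 (0.3415). In the Cy5 channel alone 0 of the 7 microglial markers passed. The noncoding RNA *Kcnq1ot1* rose by 0.53 at a dim probe (adjusted p = 0.023; 0.0542 without cort_hour1 replicate 8), but its 4 brighter probes lay between 0.01 and 0.14 and did not pass.

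**Figure D4:**
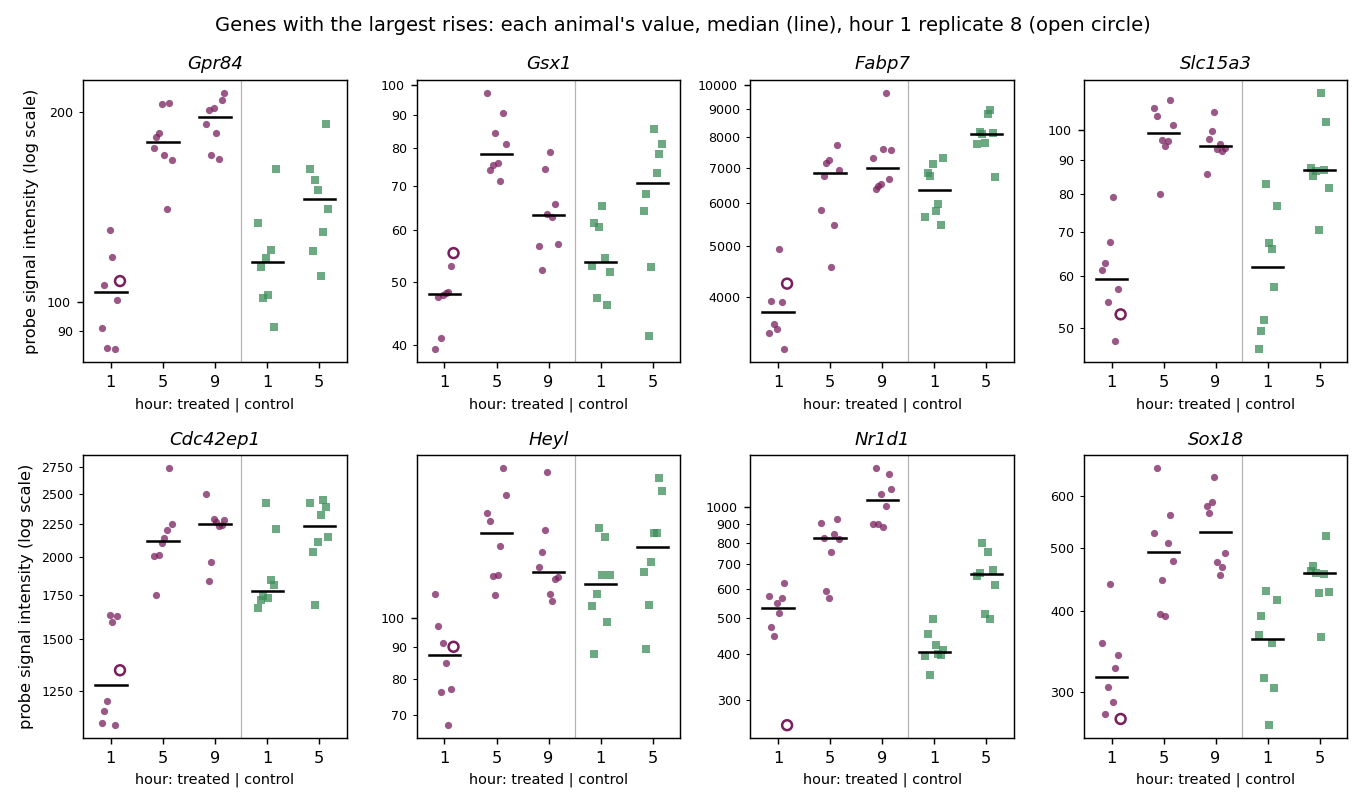
Probe signal intensity (log scale) of each mouse for the 8 named genes with the largest rises, with treated mice at hours 1, 5 and 9 as circles and control mice at hours 1 and 5 as squares. Lines are medians of 8 mice and the open circle is the hour 1 mouse replicate 8. For *Gpr84*, *Gsx1*, *Slc15a3* and *Cdc42ep1* all 8 treated values at hour 5 lie above all 8 at hour 1.

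Markers of the other cell types and neighbouring tissues showed 0 members past the threshold, with at most 2 of a list at an unadjusted p under 0.05 in limma. They comprised 10 neuronal, 7 astrocyte, 7 oligodendrocyte, 5 mural, 8 choroid plexus, 3 erythroid, 5 meningeal, 5 thalamic and 5 blood cell markers. Of all probes 0.523% passed in either direction, so a count of 0 in lists this short does not show that these cell types stayed unchanged. Neuronal markers, led by *Snap25*, summed to between 150670 and 174480 during the first hour and between 159850 and 173540 during the fifth. Astrocyte markers, led by *Aldoc*, summed to 102940 to 116010 and 103560 to 117170. Choroid plexus markers were low, at 1171 to 1697 and 1175 to 1771, and those of neutrophils and lymphocytes lower still, at 386 to 520 and 389 to 538, where *Cd79a* was well above background on 0 of 8 first-hour arrays. Sums were 9300 to 12068 and 10710 to 12315 for mural cells, 27891 to 43758 and 22816 to 41899 for erythroid cells, led by *Hba-a1*, and 4696 to 9500 and 4119 to 10453 for meninges. The list medians of these markers lay between -0.10 for the thalamus and 0.11 for mural cells. Without cort_hour1 replicate 8 the thalamic median was 0.00.

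In control mice the same hours and the same test gave 3 probes, or 0.00530%, with 3992 at an unadjusted p under 0.05. These were *Mt2*, *Slc15a3* and the dim *Rbm3* probe. Passing in treated and not in control mice does not show that they differ, so the difference itself was tested: the change between hours in treated minus that in control mice passed for 22 probes, or 0.0389%, with 2549 at an unadjusted p under 0.05. Treated mice fell relative to control mice in 20 of them and rose in 2. The count was 47 without cort_hour1 replicate 5, 35 without cort_hour5 replicate 1 and 7 without slide 3. The genes with the smallest p were *Mt2*, *Plekhf1* (-1.15, adjusted p = 1.58e-06), *Nfkbia* (-0.81, adjusted p = 1.29e-05), *Sgk1* (-0.72, adjusted p = 1.4e-05) and *Pdk4* (-0.88, adjusted p = 2.3e-05). *Pmaip1*, *Arl4d*, *Arrdc2*, *Ddit4*, *Tsc22d3*, *Fas* and the dimmer *Fkbp5* probe passed as well. By contrast *Depp1* (-1.25, adjusted p = 0.0595), *Cdkn1a* (-0.96, adjusted p = 0.146) and *Plin4* (-0.94, adjusted p = 0.183) did not, in spite of large falls in treated mice, and none of the 15 largest rises did. The 2 rises relative to controls, *Hes5* and *Trim38*, are named here after their values were seen. *Hes5*, a repressor downstream of Notch, rose by 0.50 in treated mice and was -0.24 in control mice, with treated values of 0.01 on slide 2 against 0.76 and 0.81 on slides 1 and 3. The *Trim38* probe was well above background on 0 of the 16 arrays. Over the falling probes the median change was -0.46 in treated and -0.12 in control mice, and over the rising ones 0.40 and 0.16. These medians describe probes chosen by their change in treated mice.

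**Figure D5:**
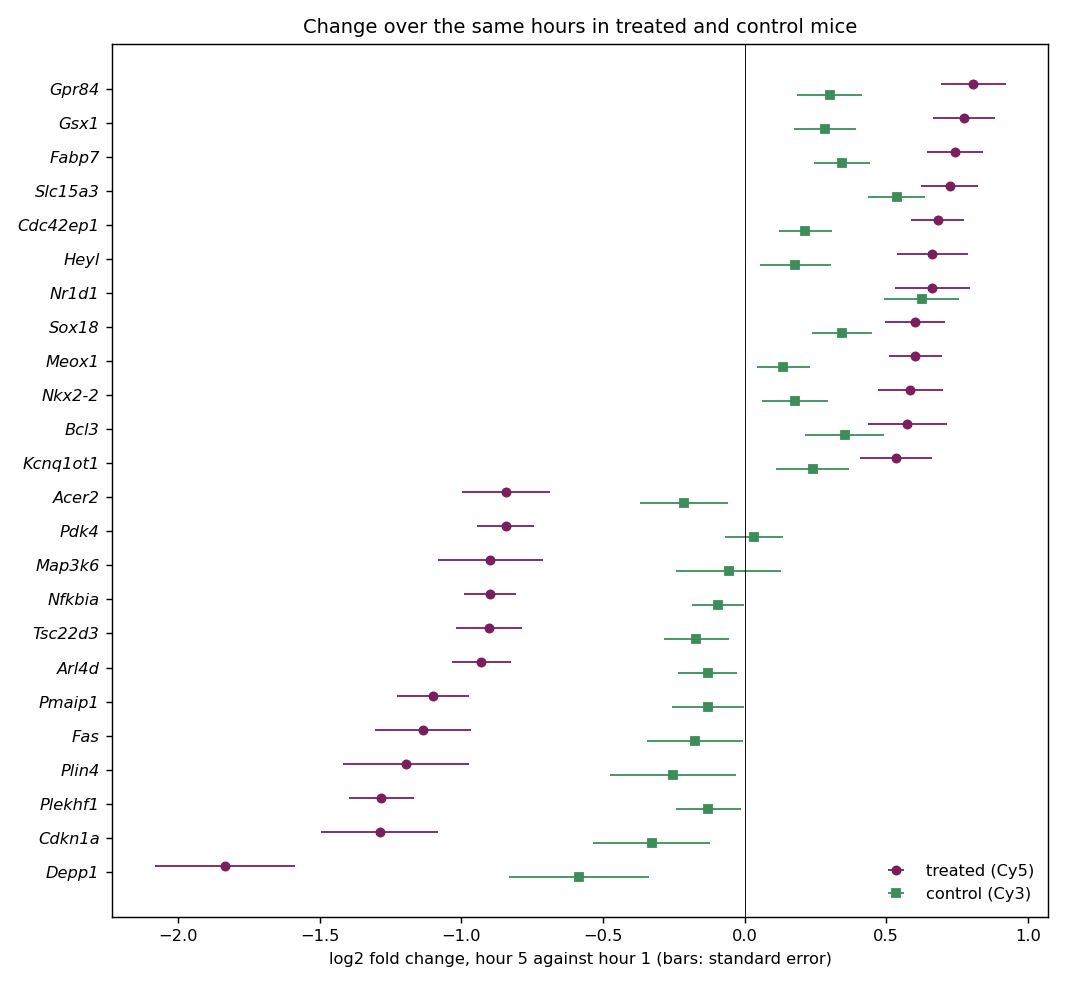
Log2 fold change between hour 5 and hour 1 (x axis) in treated mice (circles) and in control mice (squares) for the 12 named genes with the largest falls and the 12 with the largest rises (y axis). Bars are standard errors and each value compares 8 with 8 mice. *Nr1d1* has nearly the same change in both groups, 0.66 and 0.63, whereas *Pdk4* has -0.84 in treated and 0.03 in control mice.

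Where the fifth-hour level stood in relation to other groups differed between genes. The median of *Nfkbia*, *Sgk1*, *Pdk4* and *Ddit4* in fifth-hour treated mice was 1599, 4535, 505 and 9440.2, beside 1675, 4676, 529.8 and 8775 in fifth-hour controls. For *Cdkn1a*, *Plin4*, *Map3k6* and *Gm11627* it was 233, 900.3, 155 and 699.6, beside 125, 128, 109 and 449 in controls. The ninth-hour treated medians were 1649, 4478, 441 and 8545 for the former genes and 131, 205, 94.8 and 462 for the latter. Treated and control values come from different dyes, so their levels are set side by side without a test.

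Of the 58 named probes past the threshold, 23 also passed in the Cy5 channel alone. These were 15 falls, *Depp1*, *Plekhf1*, *Fas*, *Pmaip1*, *Arl4d*, *Tsc22d3*, *Nfkbia*, *Pdk4*, *Sgk1*, *Gm11627*, *Arrdc2*, *Ddit4*, *Txnip*, *Tob2* and *Trib1*, and 8 rises, *Gpr84*, *Gsx1*, *Fabp7*, *Slc15a3*, *Cdc42ep1*, *Heyl*, *Sox18* and *Meox1*. There the adjusted p was 0.000997 for *Sgk1*, 0.000997 for *Plekhf1*, 0.000997 for *Gpr84* and 0.000997 for *Gsx1*. Without slide 1, 2 or 3 in turn, 38, 36 and 24 of the 58 passed, and with slide as a block all 58 did.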

How the data were processed

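The authors hybridized RNA of treated (Cy5) and control (Cy3) mice to Agilent mouse arrays, and the deposited scanner files (Feature Extraction 10.7.3.1, build mm9) hold, for each channel, a spot's median intensity with the background measured around it. The log2 ratios deposited in the series were made by the authors after Lowess normalization within arrays, and their correlation with ratios computed here was 0.79 to 0.84. Here spots marked as outliers were set missing, background was corrected by normexp (offset 50 for p, 0 for fold changes and standard errors), and values were normalized by loess within and quantile between arrays. Copies of a probe were averaged, leaving 56605 probes, 34566 of them with a gene name. A separate-channel fit in limma 3.58.1 (R 4.3.3, statmod 1.5.0, data.table, version 1.17.8) over all 24 arrays had 6 groups and an intraspot correlation of 0.286. Benjamini-Hochberg adjusted p under 0.05 counted as passing, and the procedure was tested on simulated data, where 5 of 192 passing probes were unchanged ones. The log2 change of a list is the median over its members, by the brightest probe of each gene. Named genes are the 15 largest falls and rises among passing probes with a mean intensity of 50 or more, passing members of 17 gene lists and 11 marker lists, up to 4 bright members of each that did not pass, and up to 5 genes for the difference between treated and control. The members and lists were chosen with earlier results of these data known. Alternatives covered background, normalization, filters, slides, channels and each array in turn. Ninth-hour arrays entered the fit, and their values are shown for reference without a test.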

Additional observations from a re-analysis of the deposited data

Results flagged for a closer look

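Values far from the other 7 of a group were found by dividing the gap between the most extreme animal and the next by the range of the group, against the limit for 8 animals that chance passes in about 1 of 20 groups. Of 172 groups examined, 25 passed it. In 15 of them the animal was cort_hour1 replicate 8. It was highest for *Fas* (0.583), *Pmaip1* (0.702), *Arl4d* (0.593), *Pdk4* (0.633), *Sgk1* (0.532), *Trp53inp1* (0.699), *Ddit4* (0.541), *Errfi1* (0.635) and *Klf15* (0.555). It was also highest for the summed markers of oligodendrocytes (0.561) and thalamus (0.905) and for the lists of heat shock (0.534), endoplasmic reticulum (0.645) and growth arrest and cell death genes (0.599), and lowest for growth factor and plasticity genes (0.558). For cort_hour5 replicate 7, *Trp53inp1* was lowest (0.737), and the oligodendrocyte sum (0.637) and the corticosteroid receptor list (0.629) were highest. Other animals of the fifth hour stood apart for *Fas* (replicate 1 highest, 0.595), *Jund* (replicate 2 highest, 0.550), *Irs2* (replicate 2 lowest, 0.557), *Per2* (replicate 3 highest, 0.528) and the clock activators (replicate 5 lowest, 0.544). In the first hour, *Jund* was highest in replicate 5 (0.685) and *Tob2* in replicate 3 (0.536).

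The change between hours differed between treated and control mice for 22 probes by the limma test of the difference (adjusted p under 0.05). The log2 differences, treated minus control, were -0.998 for *Mt2*, -1.15 for *Plekhf1*, -0.81 for *Nfkbia*, -0.72 for *Sgk1*, -0.88 for *Pdk4*, -0.80 for *Arl4d* and -0.97 for *Pmaip1*. Further values were -0.70 and -0.73 for 2 probes of *Arrdc2*, -0.73 and -0.64 for 2 probes of *Tsc22d3*, -0.61 for *Fkbp5*, -0.46 for *Ddit4* and -0.96 for *Fas*. *Cmtm3* and *B4galt1*, named after their values were seen, had -0.58 and -0.43, and 4 probes without a gene name had -1.24, -0.72, -0.75 and -0.42. Treated mice were higher relative to control mice for *Hes5* (0.74). The *Trim38* probe had 0.82, but it was well above background on 0 of the 16 arrays, so this value and its direction are not reliable.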

How the results depend on the processing

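Instead of 296 probes past the threshold in treated mice, 173 passed in a fit of the 16 arrays of these hours, 53 in the Cy5 channel alone and 51 when that channel was also normalized alone. Without slide 1, 2 or 3 the counts were 146, 104 and 50, where fewer arrays were fitted. With 1 array left out at a time, both channels removed and the correlation kept from the full fit, they ranged from 190 (without cort_hour1 replicate 8) to 299. In control mice, 3 probes became 1 with offset 0, 5 with the scanner software's processed signals, 1 with 16 arrays, 1 without slide 1 and 0 without slide 3, and 1 to 6 with 1 array left out. The 22 probes for the difference between treated and control became 7 without slide 3 and ranged from 18 to 47 with 1 array left out. Other totals stayed within 1.5 times the reported one, and with slide as a block they were 333, 4 and 27. Falls and rises taken singly moved farther in some of these settings. The 129 rises became 82 without cort_hour1 replicate 3 and 83 without cort_hour5 replicate 7, and the 167 falls became 110 with offset 0. Of 1971 values of the 58 named passing probes under alternatives, 1683 still passed, 288 had the same direction without passing and 0 reversed; 18 genes passed under every alternative. No paired analysis was possible because different mice make up each hour and the replicate numbers only give their order in the series. Where the cause of a different count is not the number of arrays, the cause was not tested. Of the 296 probes, 278 were well above background on every array of both hours, 3 on none of hour 1 and 2 on none of hour 5.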
